A study of Mus musculus with 4 samples.

Results

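The insulin-like growth factor 1 (IGF1) system was followed here across 4 arrays of mouse thalamus and hypothalamus: the ligand gene Igf1, its receptor gene Igf1r, and the IGF binding protein genes Igfbp2, Igfbp3, Igfbp4, Igfbp5 and Igfbp6. These 7 genes were listed by name, as a system linked to visual experience, and their probes were found through the RefSeq accessions of the array annotation. Through these accessions a probe was found for 6 of the 7 genes. No probe carried the accession of Igfbp6, which may be on the array under another accession and was not analysed here. The probes found in this way for the 6 genes were 11 of the 41174 on the array (20 of 43379 non-control spots). All 11 gave signal well above background on all 4 arrays.

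Dark-reared mice were born to dams moved into a light-proof covered cage 1 to 4 days before delivery, tended under dim red light and kept there until tissue was taken at postnatal day 14; controls of the same age lived in standard cages with a daily cycle of 12 h of light. Each group had 2 samples, called biological replicates in the labels, and each sample went on its own one-colour Agilent array; strain, sex and the number of animals behind a sample are not given in the labels. Each value is a log2 signal set against its own array's 75th percentile, so 0 is a fairly bright probe and -3 a dim one. Levels of a gene are compared between arrays rather than between probes, whose brightness depends on their sequence. A summed level of markers adds the signals of different probes, so brighter probes weigh more in it.

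IGF1 is a secreted growth factor that acts through the IGF1 receptor, a tyrosine kinase, whose adaptors pass the signal to the PI3K, AKT and mTOR pathway and to the MAP kinases. IGF binding proteins carry IGF1 and IGF2 outside the cell and can hold them back from the receptor or bring them to it, and some are cleaved by proteases such as PAPPA to free the ligand. In the postnatal brain IGF1 supports the growth and survival of neurons and myelination, and in visual cortex it has been tied to plasticity driven by visual input.

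Technical facts of the arrays bear on what follows. Between 70.6% and 73.3% of probes were well above background on 3 arrays and 65.9% on control 2, the lowest, and no spot was saturated. Dark-reared 2 and control 2 shared a slide, and dark-reared 1 and control 1 were each on a slide of their own, so a difference within the shared slide is given beside the group difference. Xist, the RNA of the inactive X chromosome, was well above background in dark-reared 1 and control 1 and in neither of the samples on the shared slide. The Y-linked Ddx3y, at its brightest probe, read -0.32 in dark-reared 1 and 1.07 in dark-reared 2, against -6.54 in control 1 (not above the background limit) and 1.18 in control 2. Eif2s3y and Kdm5d, also Y-linked, were likewise well above background on every array but control 1. Dark-reared 1 thus had signal of both Xist and Y-linked genes, and control 1 of Xist without these; the part of sex in the results was not tested. Markers of the thalamus and of the hypothalamus were lowest in dark-reared 1 and highest in control 1 in their summed levels, and results that move with them are given with those values below. In tissue RNA, fewer cells of a type and less RNA per cell cannot be told apart.

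No member differed between the groups by the test. In limma, with Benjamini-Hochberg adjustment over 21422 genes, 0 of the 6 tested members had an adjusted p under 0.05, as did 0% of all genes tested; at an unadjusted p under 0.05 there were 0 members, against 1.24% of all genes. The groups overlapped for every one of the 6 members, whereas both values of one group lay above both of the other for 19.1% of all genes tested. The members' differences (dark-reared minus control) had a median of 0.16 on the log2 scale, beside a median of -0.01 over all genes. They were above 0 for 5 members and below 0 for 1, beside 10318 of all 21422 genes above 0. Of the 6 members, 4 were lowest in control 2 at the probe tested, beside 17.5% of all genes. For Igf1r, 1 of these, dark-reared 2 lay only 0.0014 above control 2, and its other probes were lowest in dark-reared 2. Without control 2, the differences of Igf1 (-0.53), Igf1r (-0.05), Igfbp3 (-0.0011) and Igfbp5 (-0.22) were below 0. Those of Igfbp2 (0.12) and Igfbp4 (0.51) were above 0. It follows from this overlap of the groups that, for each member, at least 1 of the 2 differences between replicates was larger in size than the group difference. With 2 samples a group, the smallest two-sided p of an exact permutation test is 0.333, so no single member could pass such a test.

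**Figure D1:**
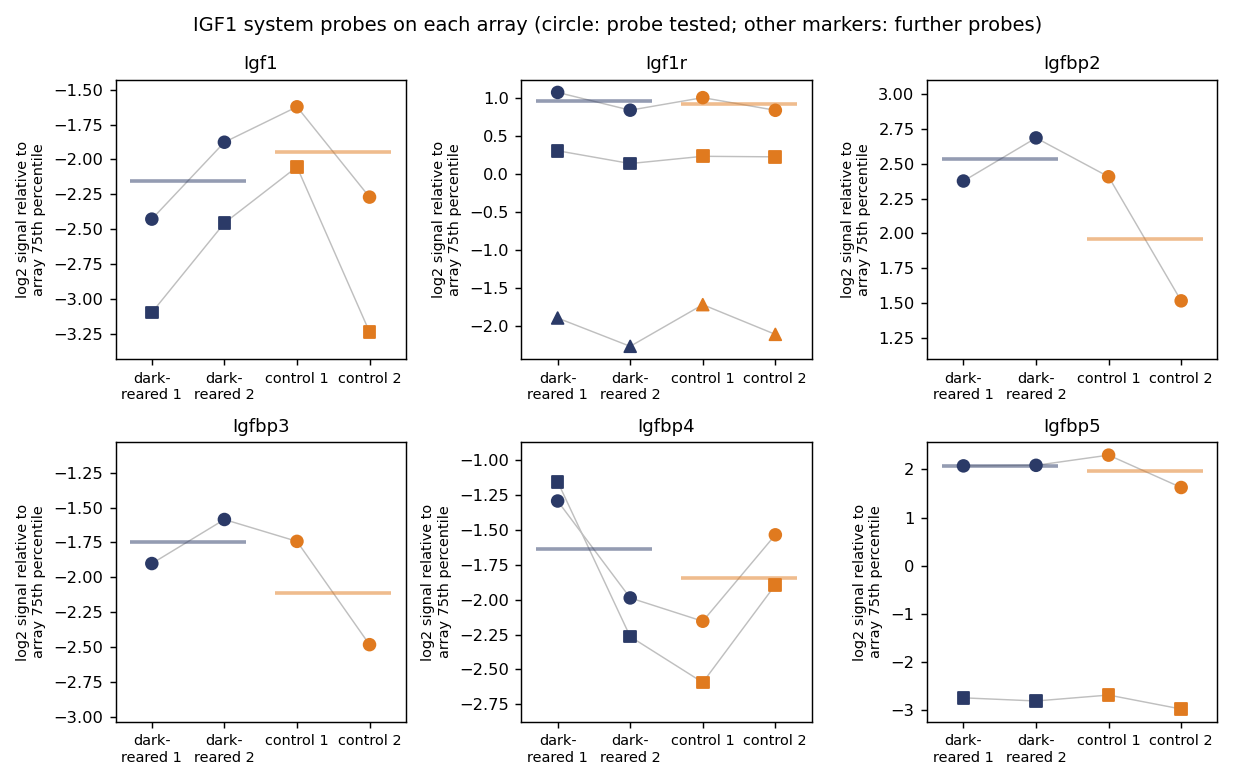
Log2 signal relative to the array's 75th percentile (vertical axis) on the 4 arrays (horizontal axis), for every probe found for the 6 measured members. Dark blue is dark-reared and orange is control. Circles are the probe used for the gene, squares and triangles its other probes, and bars the group means of the circles. By the circles, Igf1 was lowest in dark-reared 1 and highest in control 1, Igfbp4 the other way round, and Igfbp2, Igfbp3 and Igfbp5 were lowest in control 2.

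Igf1, the ligand, differed more between the samples of each group than between the groups. Its brightest probe had log2 signals of -2.43 in dark-reared 1 and -1.88 in dark-reared 2, against -1.62 in control 1 and -2.27 in control 2. Dark-reared 1 was thus lowest and control 1 highest, with the shared-slide samples between them and in the order control 2, then dark-reared 2. Group means were -2.15 ± 0.39 in dark-reared samples and -1.95 ± 0.46 in controls (SD, n = 2 each), a difference of -0.21 (limma SE 0.33, adjusted p 1.00). Within the shared slide the difference was 0.39, the opposite sign, and it was 0.07 without dark-reared 1 and 0.12 without control 1. The interval of 95% around the group difference ran from -1.13 to 0.72, which includes 0.

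This Igf1 probe was spotted 10 times on each array, which gives the spread of single spots within an array. The spots used had processed signals of 139 to 167 in dark-reared 1 (9 spots, 1 outlier left out) and 185 to 273 in dark-reared 2, against 241 to 264 in control 1 and 143 to 175 in control 2. On the log2 scale their SD was 0.08 in dark-reared 1 and 0.17 in dark-reared 2, against 0.04 in control 1 and 0.08 in control 2. The replicate samples differed by -0.55 within the dark-reared group (1 minus 2) and by 0.65 within controls. These differences were larger than the SD between spots of one array, which covers spot error alone and no error of labelling, hybridization or array. A second Igf1 probe, with 1 spot an array, read -3.10 and -2.46 in dark-reared 1 and 2, against -2.05 and -3.24 in control 1 and 2. It too was highest in control 1, but lowest in control 2 rather than in dark-reared 1, and its group difference was -0.13 (SE 0.49).

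**Figure D2:**
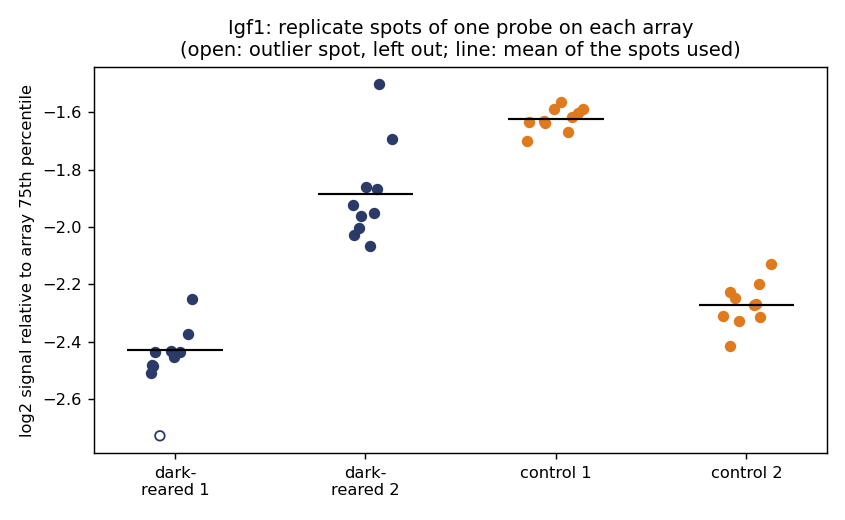
Log2 signal (vertical axis, relative to the array's 75th percentile) of each of the 10 spots of the Igf1 probe on the 4 arrays (horizontal axis); the line is the mean of the spots used and the open circle the spot left out as an outlier. The spots used in dark-reared 1 all lie below those in dark-reared 2 and in control 1, and the spots of the control arrays do not overlap each other.

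Summed levels of markers of the brain regions in the dissection took the same order over the arrays as the brightest Igf1 probe. The summed level of 12 tested thalamus markers (of 13 listed), as a multiple of the array's 75th percentile, was 10.2 in dark-reared 1 and 35.2 in dark-reared 2, against 63.0 in control 1 and 16.3 in control 2. For 7 tested hypothalamus markers, of 15 listed, the sums were 2.92 and 26.2 in dark-reared 1 and 2, against 46.7 and 13.5 in control 1 and 2. Both lists were thus lowest in dark-reared 1, then control 2, then dark-reared 2, and highest in control 1. This exact order was taken by 4 of the 12 thalamus markers (Tcf7l2, Slc17a6, Cacna1g and Ntng1) and by 4 of the 7 hypothalamus markers (Oxt, Avp, Trh and Resp18), beside 6.03% of all genes tested. The levels of Avp, Oxt and Resp18 made up most of the hypothalamus sums. Among the other hypothalamus markers, Hcrt was lowest in control 2, Pomc lowest in dark-reared 2 and Nkx2-1 highest in dark-reared 2. Of the 10 astrocyte markers, 3 took the Igf1 order, with sums of 126 and 113 in dark-reared 1 and 2, against 142 and 121 in control 1 and 2. Microglia are another source of IGF1 in the young brain: the summed level of the 11 microglia markers was 36.0 and 29.0 in dark-reared 1 and 2, against 25.8 and 38.1 in control 1 and 2, and 0 of them took the Igf1 order. What part the amounts of thalamus, hypothalamus, astrocytes or microglia in a sample have in the Igf1 values was not tested.

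Igf1r, which encodes the receptor, had the smallest range over the arrays among the members, at the probe tested. Its brightest probe read 1.07 and 0.83 in dark-reared 1 and 2, against 1.00 and 0.83 in control 1 and 2, a range of 0.23 over all 4 arrays. The means were 0.95 ± 0.16 in dark-reared samples and 0.92 ± 0.12 in controls (SD, n = 2 each), a difference of 0.03 (SE 0.17). Replicates differed by more than this within each group, by 0.23 and 0.17. The other probes of Igf1r gave differences of -0.01 and -0.17, and the mean of its 3 probes gave -0.05, so the sign of the receptor's difference rests on which probe is read. Its 95% interval, from -0.44 to 0.51 at the brightest probe, was the narrowest among the members.

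Igfbp2, a binding protein made by choroid plexus, meninges and glia of the developing brain, had the largest difference of the 6 members. Its single probe read 2.38 in dark-reared 1 and 2.68 in dark-reared 2, against 2.41 in control 1 and 1.52 in control 2. Control 2, the array with the fewest probes above background, stood apart on the low side, and control 1 lay between the dark-reared samples. The means were 2.53 ± 0.22 in dark-reared samples and 1.96 ± 0.63 in controls (SD, n = 2 each), a difference of 0.57, or 1.48-fold (limma SE 0.36, unadjusted p 0.192, adjusted p 1.00). A larger absolute difference was found for 6.58% of all genes tested. The difference was 1.17 within the shared slide, which holds control 2, and 0.12 without control 2.

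Igfbp3, which encodes the main carrier of IGF1 in blood, ordered the arrays as Igfbp2 did: control 2, dark-reared 1, control 1, dark-reared 2, low to high. That order was found for 3.94% of all genes tested. The log2 signals of Igfbp3 were -1.90 and -1.59 in dark-reared 1 and 2, against -1.74 and -2.48 in control 1 and 2. Here too a single sample, control 2, was apart, and the other 3 arrays lay within 0.32 of each other. The difference was 0.37 (SE 0.32), and it was 0.90 within the shared slide and -0.0011 without control 2.

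Igfbp5, whose product binds IGFs and the extracellular matrix, was also lowest in control 2. Its brightest probe read 2.07 in dark-reared 1 and 2.09 in dark-reared 2, against 2.30 in control 1 and 1.62 in control 2, so the dark-reared samples agreed to 0.01 and lay between the controls. The group difference was 0.12 (SE 0.28), 0.46 within the shared slide and, with the opposite sign, -0.22 without control 2. The dimmer probe of Igfbp5 had the same lowest and highest arrays and differed by 0.05 (SE 0.17).

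Markers of choroid plexus, the epithelium that makes cerebrospinal fluid in the ventricles beside this tissue, were low in the same sample. The summed level of the 10 choroid plexus markers was 22.7 in dark-reared 1 and 14.3 in dark-reared 2, against 21.4 in control 1 and 3.43 in control 2, and 9 of the 10 were lowest in control 2, where 17.5% of all genes tested had their lowest value. Ttr, which encodes transthyretin and is the best known of them, read 2.65 and 1.58 in dark-reared 1 and 2, against 2.51 and -1.77 in control 1 and 2. Igf2, the second ligand, which choroid plexus and meninges express strongly, was lowest there as well, at 2.40, while control 1 (2.88) and the dark-reared samples (2.89 and 2.97) were close together. Of the 9 tested markers of meninges and fibroblasts, of 10 listed, 2 were lowest in control 2; their summed level was 9.87 and 18.2 in dark-reared 1 and 2, against 13.9 and 11.2 in control 1 and 2. Igfbp2 and Igfbp3 were highest in dark-reared 2, where the meningeal sum was highest and the choroid plexus sum was not. Their full order of the arrays was taken by 0 of 10 choroid plexus markers and 0 of 9 markers of meninges and fibroblasts. Of the 10 astrocyte markers, 3 were lowest in control 2 and 1, Gfap, took that full order. The part of these tissues and cells, and of what sets the control 2 array apart, in the Igfbp2, Igfbp3 and Igfbp5 values was not tested.

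Igfbp4, whose product binds and restrains IGFs until PAPPA cleaves it, mirrored the brightest Igf1 probe. The brightest probe read -1.29 in dark-reared 1 and -1.99 in dark-reared 2, against -2.15 in control 1 and -1.54 in control 2. The second probe read -1.16 and -2.27 in dark-reared 1 and 2, against -2.59 and -1.89 in control 1 and 2. Both probes thus put control 1 lowest, then dark-reared 2, then control 2, and dark-reared 1 highest, which is the order of the brightest Igf1 probe turned round; 6.84% of all genes tested took this order. The group difference was 0.20 (SE 0.36) at the brightest probe and 0.53 (SE 0.48) at the other. Within the shared slide the sign was opposite, at -0.45 and -0.37, and the difference at the brightest probe was -0.14 without dark-reared 1 and -0.10 without control 1. Markers of the striatum, which borders the dissected tissue, were high in the samples where Igfbp4 was high: the summed level of 7 markers was 165 and 45.5 in dark-reared 1 and 2, against 56.8 and 128 in control 1 and 2. Cortex and hippocampus markers (12 of 12 tested) had sums of 192 and 62.4 in dark-reared 1 and 2, against 80.0 and 140 in control 1 and 2, the level of Nrgn making up most of them; 6 of the 12 were lowest in control 2. The microglia sums given above were likewise higher in dark-reared 1 and control 2, as were those of 8 endothelial markers (26.02 and 21.9 in dark-reared 1 and 2, against 23.6 and 27.3 in control 1 and 2) and of 6 pericyte markers (17.7 and 14.3 in dark-reared 1 and 2, against 15.1 and 16.8 in control 1 and 2). The full Igfbp4 order was taken by 1 of 7 striatum, 0 of 12 cortex and hippocampus, 3 of 11 microglia, 2 of 8 endothelial and 0 of 6 pericyte markers, and the part of any of these cells in the Igfbp4 values was not tested.

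**Figure D3:**
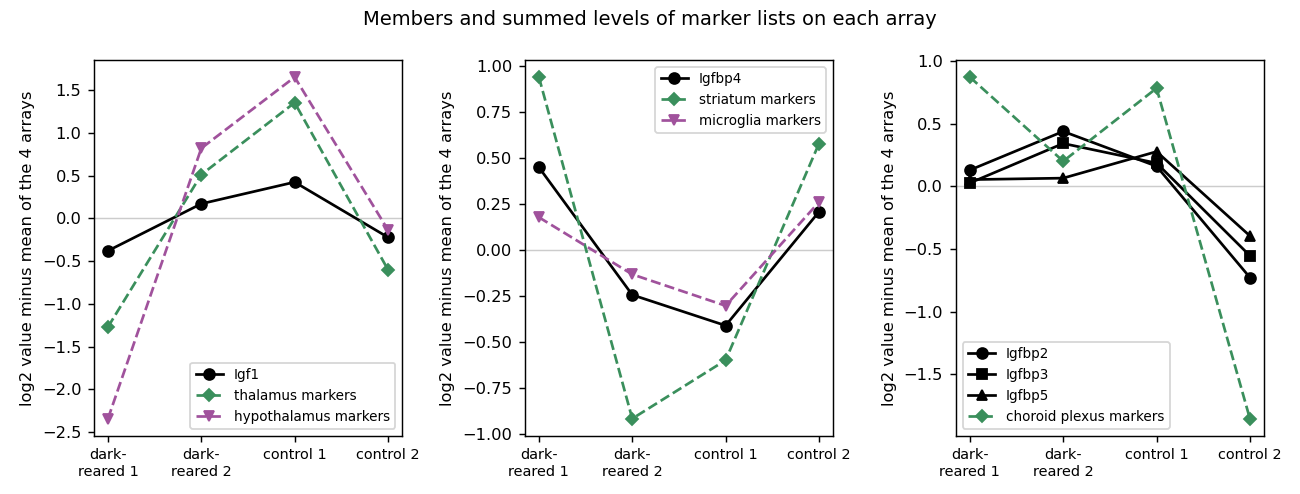
Log2 value minus the mean of the 4 arrays (vertical axis) on each array (horizontal axis), for members (black, solid) and for the summed level of marker lists (coloured, dashed). Igf1, at its brightest probe, and the summed thalamus and hypothalamus markers share the order of the arrays. Igfbp4 and the striatum and microglia markers are higher in dark-reared 1 and control 2. Igfbp2, Igfbp3, Igfbp5 and the choroid plexus markers are lowest in control 2.

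**Figure D4:**
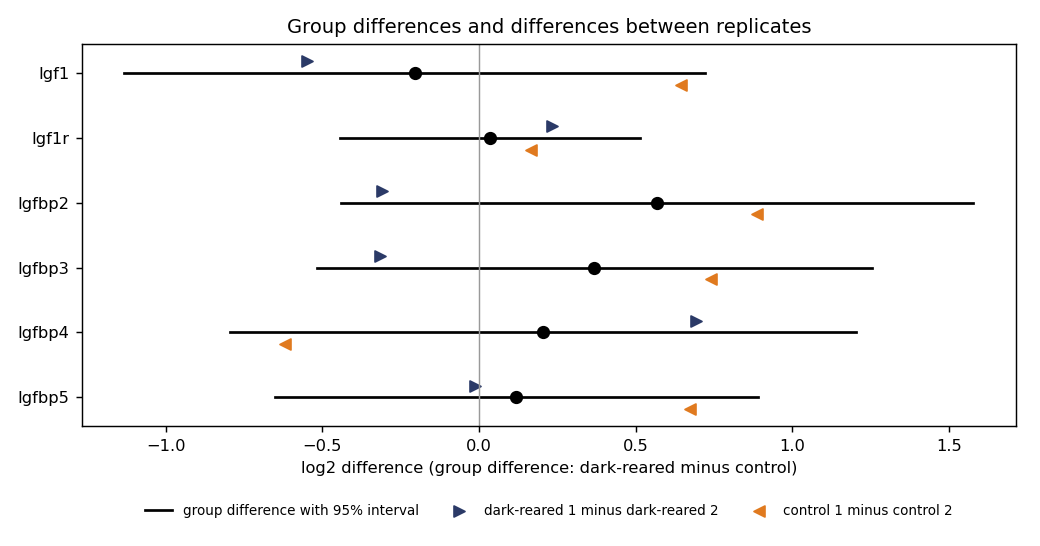
Log2 difference (horizontal axis) for each member (vertical axis): the black point and bar are the group difference, dark-reared minus control, with its 95% interval from limma, and the triangles are the differences between replicates of one group. All 6 intervals include 0. For every member a triangle lies farther from 0 than the group difference, which follows from the overlap of the groups.

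The sequences before the start sites of members that ordered the arrays alike or in opposite ways are shown so that they can be set side by side. They are the 250 bases before the annotated start from RefSeq on GRCm38.p6, read 5′ to 3′ on the gene's strand. Capitals mark matches on either strand to GGGCGG (the Sp1-type box, in 32.7% of 32851 mouse promoter windows of this length), TATAAA (the core promoter box of that name, in 12.4%) and CCAAT (the box of that name, in 33.8%); these motifs do not overlap each other here. Igf1 and Igfbp4 had opposite array orders at their brightest probes, and their windows lie at chr10:87860861-87861110 (plus strand) and chr11:99040994-99041243 (plus strand).
Igf1: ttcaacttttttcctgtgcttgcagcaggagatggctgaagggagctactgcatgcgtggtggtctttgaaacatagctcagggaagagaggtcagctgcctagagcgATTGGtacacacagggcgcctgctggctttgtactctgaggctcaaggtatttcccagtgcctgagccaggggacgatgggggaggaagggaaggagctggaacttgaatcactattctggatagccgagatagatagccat
Igfbp4: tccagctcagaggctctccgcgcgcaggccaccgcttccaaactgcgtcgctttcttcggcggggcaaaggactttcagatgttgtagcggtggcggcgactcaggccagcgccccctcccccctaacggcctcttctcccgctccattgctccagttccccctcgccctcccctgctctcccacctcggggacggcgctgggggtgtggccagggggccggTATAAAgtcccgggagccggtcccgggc
Igfbp2 and Igfbp3 had the same array order, and lie at chr1:72824230-72824479 (plus strand) and chr11:7213924-7214173 (minus strand).
Igfbp2: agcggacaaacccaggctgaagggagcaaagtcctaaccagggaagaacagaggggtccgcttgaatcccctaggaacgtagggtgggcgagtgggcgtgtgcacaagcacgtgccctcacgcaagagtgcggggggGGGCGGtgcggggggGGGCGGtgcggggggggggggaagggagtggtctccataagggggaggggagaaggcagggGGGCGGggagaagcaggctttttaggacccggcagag
Igfbp3: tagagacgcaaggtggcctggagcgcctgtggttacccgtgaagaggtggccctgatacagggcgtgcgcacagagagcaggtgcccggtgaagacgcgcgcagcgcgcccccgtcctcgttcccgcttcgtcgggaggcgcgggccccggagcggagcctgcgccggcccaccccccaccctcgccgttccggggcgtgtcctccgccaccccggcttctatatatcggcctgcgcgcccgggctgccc
The Igf1 window held 1 CCAAT, on the minus strand, the Igfbp4 window 1 TATAAA, and the Igfbp2 window 3 GGGCGG matches, while the Igfbp3 window held no match to the 3 motifs. G and C made up 52.8% of the Igf1 window, 69.2% of the Igfbp4 window, 67.2% of the Igfbp2 window and 73.2% of the Igfbp3 window, beside a median of 52.4% over all windows. The Igfbp2 gene has a second annotated start, not shown. The arrays do not measure binding or start site use, so these letters describe the windows alone.

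Genes that work with the members did not pass the test either. Of 69 listed genes of the wider pathway, 63 were tested. Dark-reared mice had the higher mean for 30 and the lower for 33, and the median difference was -0.01, as over all genes. None had an adjusted p under 0.05 in limma, 1 (Irs4) had an unadjusted p under 0.05, and the groups did not overlap for 13 (20.6%), near the 19.1% of all genes tested. The median size of the difference was 0.08, against 0.11 over all genes.

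Among 10 tested genes of other IGF ligands, receptors and carriers, 4 were higher and 6 lower, with a median of -0.01. The 4 higher genes were also those whose groups did not overlap: Igf2, the insulin receptor gene Insr, its relative Insrr and Igfbpl1, a secreted protein related to the binding proteins. Groups did not overlap for 19.1% of all genes tested. Igfbpl1 had the largest difference, at -0.70 and -0.78 in dark-reared 1 and 2, against -2.20 and -1.25 in control 1 and 2, a difference of 0.99 (SE 0.37, limma adjusted p 1.00). Insr differed by 0.10 and Insrr by 0.70, with Insrr well above background on 3 of 4 arrays. Insrr thus passed the filter through 1 group alone, which bears on its place among the genes whose groups did not overlap. Igf2 differed by 0.29 (SE 0.22). Igf2r, which clears IGF2 from the cell surface, differed by -0.08, and Igfbp7, a vessel protein that binds IGFs weakly, by -0.05. Pappa, the protease that cleaves IGFBP4, took the order of Igf1: it read -3.41 and -1.20 in dark-reared 1 and 2, against -1.04 and -2.03 in control 1 and 2, a difference of -0.77 (SE 0.87) that was 0.83 within the shared slide.

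Adaptors of the receptor gave 4 higher and 7 lower genes of 11 tested, with a median of -0.03. Irs4, an insulin receptor substrate of the hypothalamus, was the one gene here whose groups did not overlap. It read -2.45 and -2.94 in dark-reared 1 and 2, against -1.85 and -1.94 in control 1 and 2. The difference was -0.80 (limma SE 0.23, unadjusted p 0.0243, adjusted p 1.00), and it was -0.996 within the shared slide. The hypothalamus marker sums were 2.92 and 26.2 in dark-reared 1 and 2, against 46.7 and 13.5 in control 1 and 2. Irs4 was thus lowest in dark-reared 2, while that sum was lowest in dark-reared 1. The part of the amount of hypothalamus in a sample in the Irs4 values was not tested. Irs1, the related substrate found across tissues, took the order of Igf1, with 0.65 and 1.38 in dark-reared 1 and 2, against 1.47 and 0.72 in control 1 and 2. Grb14, an inhibitory adaptor, differed by -0.37, and Ptpn1, a phosphatase that acts on the insulin receptor, by 0.18.

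Downstream genes differed little between the groups. In the PI3K, AKT and mTOR list 12 genes were higher and 10 lower of 22 tested (median 0.0034). The groups did not overlap for 6 of the 22, beside 19.1% of all genes tested. The largest difference there was that of Eif4ebp1, a translation repressor switched off by mTOR, at 0.38 (SE 0.22), with -0.66 and -0.42 in dark-reared 1 and 2, against -1.13 and -0.71 in control 1 and 2. Tsc1, part of the complex that restrains mTOR, differed by 0.17 and Pdpk1, the kinase that activates AKT, by 0.17. In the RAS and MAP kinase list 7 were higher and 4 lower of 11 tested (median 0.01), with no gene whose groups did not overlap. Differences there included those of Rps6ka1, a ribosomal S6 kinase of this pathway, at -0.37, and of the MAP kinase gene Mapk3, at -0.10.

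The growth hormone axis, which drives Igf1 in liver, gave 3 higher and 6 lower genes of 9 tested (median -0.06). Ghrh, the hypothalamic releasing hormone, had the order of Igf1, with -2.05 and -1.42 in dark-reared 1 and 2, against -0.47 and -1.65 in control 1 and 2. Ghrhr, its receptor in the pituitary, read -6.98 in dark-reared 1, where it was not well above background, and -3.73 in dark-reared 2, against -3.85 and -3.57 in control 1 and 2. Gh, a pituitary hormone gene, was well above background in both controls and in neither dark-reared sample (means -6.19 in dark-reared samples and -4.66 in controls). Gh entered the test through the controls alone, so its place among the lower genes, and among those whose groups did not overlap, follows from the filter. Ghrhr too passed the filter through the controls alone, which bears on its place among the lower genes.

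Over all 63 pathway genes the Igf1 order was taken by 5 (7.94%, beside 6.03% of all genes tested): Pappa, Irs1, Sos1, Rptor and Ghrh. The Igfbp4 order was taken by 3 (4.76%, beside 6.84%).

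**Figure D5:**
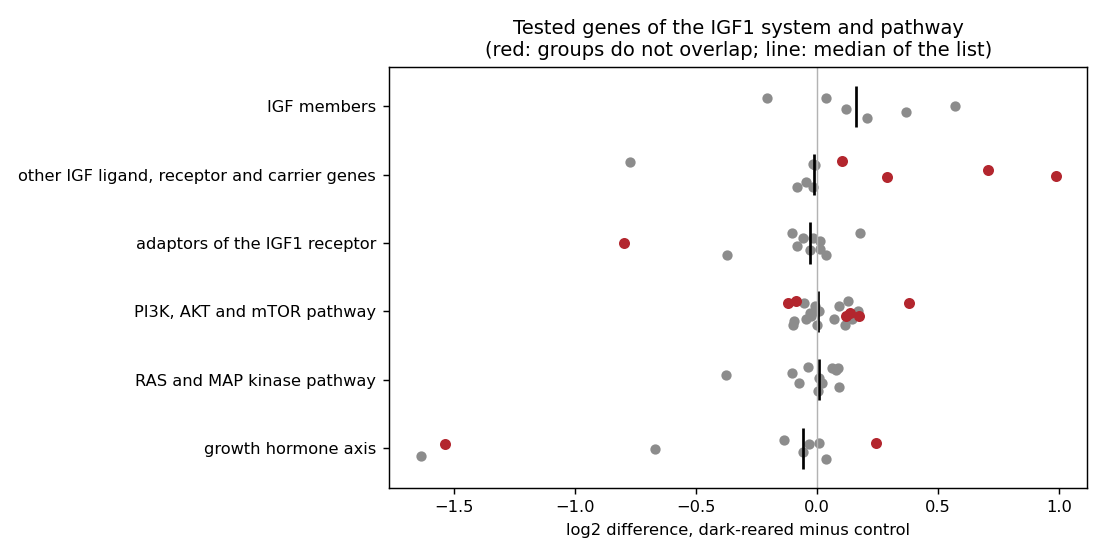
Log2 difference, dark-reared minus control (horizontal axis), of each tested gene in the member list and the 5 pathway lists (vertical axis; points are spread vertically for legibility); red points are genes whose groups do not overlap and the black line is the list's median. The medians of the pathway lists lie between -0.06 and 0.01, and no member is red.

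Igfbp2 was the one member whose arrays differed by at least 1 on the log2 scale at the tested probe, and the genes most like it over the 4 arrays were looked up by the Euclidean distance between values centred on each gene's own mean, among 13527 named genes well above background on all arrays. The nearest were Tssk5 (distance 0.05), Ctf1 (0.10) and Olfr971 (0.13). Tssk5 read -2.72 and -2.43 in dark-reared 1 and 2, against -2.69 and -3.64 in control 1 and 2, so control 2 was low here too. With 4 arrays the distance is a description alone.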

How the data were processed

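Total RNA of 2 dark-reared and 2 control samples was measured on one-colour (Cy3) Agilent arrays. Per the file headers, the deposited spot intensity values came from Agilent Feature Extraction 10.7.3.1; the submitters' processing notes give 10.7. The processed signal is background-subtracted and detrended within the array, without scaling across arrays. A table of log2 values, also deposited by the authors, had a median of 6.84 on every array; their scale and direction were those of the log2 processed signal (correlation 0.999 to 1.00 over probes), and their normalization is not given in the sources used. They served as an alternative.

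Control and outlier spots were left out (79 to 103 outliers an array), spots of a probe averaged, and log2 signals taken relative to each array's 75th percentile (764 to 794). Names came from RefSeq accessions through a GRCm38.p6 table, used for names; 26918 probes had 1 symbol and 14256 had none. A probe was kept if either group had it well above background on both arrays (28444 probes), and the brightest probe stood for a gene, giving 21422 genes, 14327 with a symbol. The test was the moderated one of limma 3.58.1 (R 4.3.3), two-sided, with Benjamini-Hochberg adjustment and a threshold of 0.05; the script was tested on simulated data. The number of arrays limits the precision, and the p-values measure the spread between these samples alone.

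The members and lists were chosen with earlier results of these data known. The text names every member, 8 preset pathway genes (Irs2 was not tested), the 3 genes of each pathway list with the largest absolute difference, and genes a result turns on; 1 gene under this rule is not reported here. Slides come from the file headers. The normexp alternative used median spot signals.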

Additional observations from a re-analysis of the deposited data

How the results depend on the processing

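The lack of calls held across the settings tried: 0 genes passed the adjusted threshold in limma at the main setting, under each other scaling, background correction, filter and probe choice, with the deposited values, with eBayes trend and robust, with each array left out, with the replicate number as a block and with the replicate numbers crossed (0 calls; added because the deviations of same-numbered samples correlated at -0.16 over genes, which does not pair them). In this balanced design the replicate block cannot move a difference. Igfbp2 was above 0 in all 17 alternatives (0.12 to 1.17), of which the filters, probe choices, eBayes options and block could not change its value, as it has 1 probe. Under normexp on median spot signals, whose fitted background mean was -236 on control 2 against -5.70 to 2.97 on the other arrays, Igfbp3 was at -0.061 and Igfbp4 at -0.069, the opposite sign, Igf1 was at -0.46 and Igf1r at 0.15; with outlying local backgrounds replaced neither sign turned, and Igf1 was at -0.15 and Igf1r at 0.08. Igf1r turned to -0.046 with the mean of its probes. Within the shared slide Igf1 was at 0.39 and Igfbp4 at -0.45; counts have no value there. With 1 array left out, which assumes that the lone sample varies like the other group, differences ran from -0.53 to 0.12 for Igf1, -0.081 to 0.15 for Igf1r, 0.12 to 1.01 for Igfbp2, -0.0011 to 0.74 for Igfbp3, -0.14 to 0.55 for Igfbp4 and -0.22 to 0.46 for Igfbp5. The number of genes whose groups do not overlap then ran from 10592 to 14022, against 4092 with all arrays, and in the pathway lists from 27 to 48, against 13, as fewer samples leave less room for overlap. The members were well above background on every array. The choice of background correction still moved the values of Igf1, Igfbp3 and Igfbp4, whose tested probes were dim.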
